A study of Mus musculus with 45 samples.

Results

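The subject is a stretch of mouse chromosome 5 that carries the working name of the gene Auts2, chr5:131900000-133100000 on build mm9, 1.2 Mb long. Its members are all domains of acetylated histone H3 lysine 9 (H3K9ac) with their midpoint in that stretch, which are 12 of the 44165 domains in the deposited set. The stretch was selected on measured values with earlier results of all these libraries known. The record of the choice does not name the values; it was taken to rest on the H3K9ac difference between tau and wild type hippocampus at 11 months, where the loss around 132 to 133 Mb stood out. That comparison is therefore a description with no p-value, and its counts past a threshold carry no weight as a test. Tests are given for the other comparisons, and their p-values hold only as far as those comparisons played no part in the choice, which cannot be checked.

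H3K9ac was mapped in bulk mouse hippocampus by ChIP-seq, in which chromatin bound by an antibody to the mark is pulled down and sequenced. The tau mice carry human MAPT with the P301S mutation, which makes the tau protein prone to aggregate. Their groups were tau at 6 months (females, 2 libraries), wild type (WT) at 6 months (females, 3 libraries), tau at 11 months (males, 3 libraries) and WT at 11 months (males, 3 libraries), so age and sex changed together. The CK-p25 mice are double-transgenic females in which p25, an activator of the kinase Cdk5, was switched on at 3 months of age; in this model p25 is made in forebrain neurons. Their groups were CK-p25 and CK, the control littermates, 2 weeks after induction (age 3.5 months) and again 6 weeks after it (age 4.5 months), with 3 libraries in each of these 4 groups. Age and time after induction changed together in this series, and the labels do not say which of the alleles the CK littermates carry. The 2 series used different antibody lots and were normalised and tested apart, so levels are compared within a series only. Whether libraries of a group came from different animals is not stated in the labels, and p-values measure the spread between libraries.

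H3K9ac is placed by histone acetyltransferases around the start sites of active genes and at active enhancers, and is removed by histone deacetylases. Most of it lies in short domains, and a wide domain usually marks a strongly used promoter or a cluster of enhancers. Auts2 is a very long gene expressed in neurons of the cortex and hippocampus. Its protein acts in the nucleus, where it joins a Polycomb complex together with a histone acetyltransferase and activates neuronal genes, and in the cytoplasm, where it acts on the actin skeleton of growing neurites. Disruption of the human gene is linked to intellectual disability and autism.

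The name of the gene could not be checked against these coordinates. Gene positions were at hand on another build, GRCm38. Ends of 338 domains, on 9 chromosomes, pass the last gene of their chromosome there, so no member was placed in an exon, an intron or a promoter. In the gene order of that table the protein-coding neighbours of Auts2 are Galnt17, which encodes an enzyme that starts O-linked glycan chains, at lower coordinates and Castor2, a relative of the arginine sensor of the mTOR pathway, at higher coordinates.

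Libraries of the tau series had 4.10 to 6.18 M reads in domains, and those of the CK-p25 series 0.996 to 4.13 M. The shallowest libraries were CK-p25 at 6 weeks replicate 3 with 1.31 M and CK at 6 weeks replicate 3 with 0.996 M. Cross correlation, a measure of ChIP enrichment in the labels, averaged 0.228 ± 0.0263 in tau and 0.313 ± 0.0250 in WT libraries at 11 months (SD, n = 3 each), with no overlap between the groups. At 6 months it averaged 0.243 ± 0.0164 in tau (n = 2) and 0.245 ± 0.00303 in WT libraries (n = 3). In the CK-p25 series it averaged 0.167 ± 0.0234 in CK-p25 and 0.138 ± 0.0368 in CK libraries at 2 weeks, and 0.131 ± 0.0527 in CK-p25 and 0.0928 ± 0.0387 in CK libraries at 6 weeks (SD, n = 3 each). In bulk tissue fewer cells with the mark and less of the mark per cell cannot be told apart.

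The members covered 19.6 kb, or 1.64% of the stretch, and most were small. Their median width was 607 bp, against 776 bp over all domains. Levels are given in CPM, the reads of a domain per 1 M reads in all tested domains of the library. Those were 44105 domains in the tau series and 38193 in the CK-p25 series. Library sizes were scaled by TMM, a factor that evens out differences in composition. Averaged over all 23 libraries, 8 of the 12 members lay below 10 CPM, and 3 members wider than 2500 bp held 84.5% of the reads of the stretch (81.2% to 88.2% by library).

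The widest of these 3 was peak13222 (chr5:132008383-132015125), 6743 bp wide with 141 CPM. Per kb it had 21.0 CPM, and 99.0% of all domains had a lower level in CPM. The next was peak13232 (chr5:133016198-133020526), 4329 bp wide, with 117 CPM and 27.0 CPM per kb. The third was peak13223 (chr5:132090149-132093081), 2933 bp wide, with 30.0 CPM and 10.2 CPM per kb. Both peak13222 and peak13232 were thus dense as well as wide, with 79.9% and 88.5% of all domains lower per kb. The other members ran from 7.83 to 11.6 CPM per kb.

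The wide domains sat at the ends of the stretch. The first member, peak13221 (chr5:132007122-132007961, 840 bp, 6.68 CPM), lay only 421 bp before peak13222, and peak13223 followed 75.0 kb after it. Then came 6 narrow members and an empty gap of 316 kb, the widest in the stretch, before peak13230. The most abundant of the narrow ones was peak13229 (chr5:132550006-132551414, 1409 bp, 16.4 CPM). The other 7 narrow members averaged 2.31 to 5.32 CPM, with 1 to 43 reads in a library. The last member was peak13232. The nearest domain outside at lower coordinates was peak13220 (chr5:131780020-131784194, 4175 bp), 116 kb outside the limit, and the nearest at higher coordinates was peak13233, 1382 kb outside it. No domain lay in the 1.2 Mb above the stretch, against 9 in the 1.2 Mb below it.

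At 11 months H3K9ac at the 3 domains of the left end of the stretch was lower in every tau library than in any WT library. At peak13222 the level was 83.0, 94.0 and 91.8 CPM in tau libraries and 151, 157 and 136 CPM in WT libraries. At peak13223 it was 14.2, 18.2 and 14.9 CPM in tau libraries, against 42.3, 34.2 and 35.4 CPM in WT libraries. Both are wide domains, and at both the groups were apart. The small neighbour peak13221 had 2.37, 2.42 and 3.50 CPM in tau libraries and 6.26, 6.42 and 4.39 CPM in WT libraries, again without overlap.

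The log2 change of tau against WT at 11 months was -1.26 ± 0.12 at peak13223, -0.72 ± 0.06 at peak13222 and -1.01 ± 0.28 at peak13221, each with its standard error from edgeR's fit. The other wide domain, at the right end, differed less. At peak13232 the level was 94.0, 107 and 86.1 CPM in tau libraries and 104, 110.5 and 119 CPM in WT libraries, so the groups overlapped, with a log2 change of -0.22 ± 0.07. At peak13229 it was 15.0, 8.0 and 11.8 CPM in tau libraries, against 15.8, 11.5 and 16.6 CPM in WT libraries, which also overlapped (log2 change -0.32 ± 0.17).

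**Figure D1:**
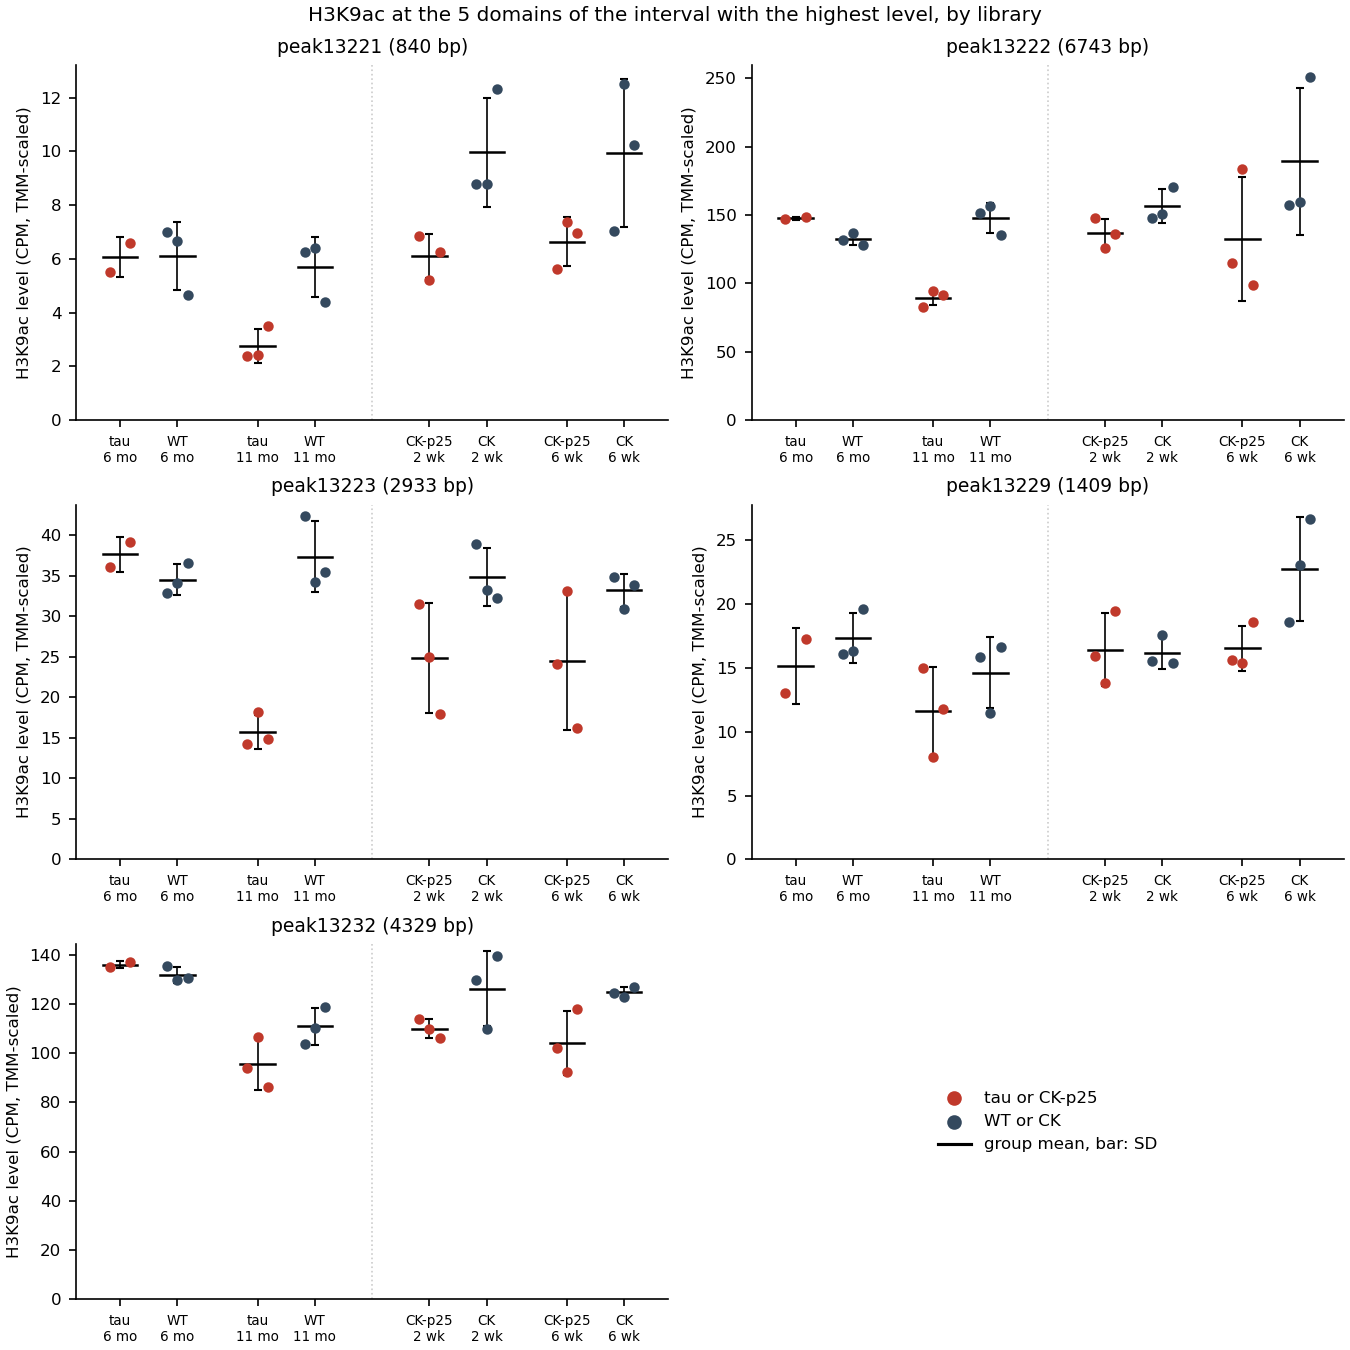
H3K9ac level (CPM, TMM-scaled, linear axis from 0) at the 5 members with the highest mean level, one panel each. Points are libraries, lines group means and bars SD, and tau or CK-p25 stands left of its WT or CK group; a dotted line parts the 2 series. At peak13222 the tau libraries at 11 months sit between 83.0 and 94.0 CPM, below every WT library at 136 to 157 CPM, while at peak13232 the groups overlap.

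Of the 12 members, 10 were lower in tau at 11 months on the log2 scale and 2 were higher, with a median of -0.57 against 0.01 over all 44105 domains tested. By edgeR's quasi-likelihood test with Benjamini-Hochberg adjustment over all domains, 5 members were past 0.05 and lower (peak13221, peak13222, peak13223, peak13226 and peak13232) and 0 were higher, counted as a description only. Over all domains 7.56% were past it and lower. In 6 members the tau libraries all lay below the WT libraries, which held for 13.8% of all domains. The count was 2 without tau replicate 1 and 3 without tau replicate 3. All these values come from the contrast taken to have chosen the stretch, and nothing is read from them.

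The order along the stretch was uneven. The members up to 401 kb from its start had log2 changes of -0.55 to -1.33 at 11 months. The lowest was at the small peak13226 (-1.33 ± 0.44, 1.08 ± 0.152 CPM in tau and 2.72 ± 0.385 CPM in WT, SD, n = 3 each). The difference did not stop there. Between 401 kb and the widest gap, peak13227 had -0.28 ± 0.28, peak13228 -0.98 ± 0.40 and peak13229 -0.32 ± 0.17. At the small peak13228, 610 kb from the start, every tau library lay below every WT library (means 1.40 and 2.81 CPM). After the widest gap, peak13230 and peak13231 had positive values of 0.50 ± 0.31 and 0.50 ± 0.25. The ratio of peak13222 to peak13232 within a library, which does not depend on how libraries were scaled, was 0.883, 0.882 and 1.07 in tau and 1.46, 1.42 and 1.14 in WT libraries at 11 months. At 6 months the ratio was 1.09 and 1.08 in tau and 0.973, 1.06 and 0.980 in WT libraries. The WT libraries at 11 months thus had the highest ratios of the tau series. The lower cross correlation of the tau libraries at 11 months moved with the differences between tau and WT at that age. With it as a covariate, peak13222 had a log2 change of -0.77 ± 0.14 and peak13223 one of -1.13 ± 0.25, while peak13221 had -0.91 ± 0.59 and peak13232 had -0.45 ± 0.14. Its own part in the result was not tested.

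Among the 3483 tested domains at least as wide as peak13223, 29.9% were past 0.05 and lower in tau at 11 months and 7.72% were higher, with a median log2 change of -0.06. Of the 3483, 1 had a lower log2 value than peak13223, 138 (3.96%) than peak13222 and 987 (28.3%) than peak13232. The cut is the width of peak13223 itself, so it is the narrowest of this set. Among tested domains of any width 0.367% had a lower value than peak13223, 4.17% than peak13222 and 24.0% than peak13232. This contrast was taken to have chosen the stretch, so the ranks are a description with no weight as a test.

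**Figure D2:**
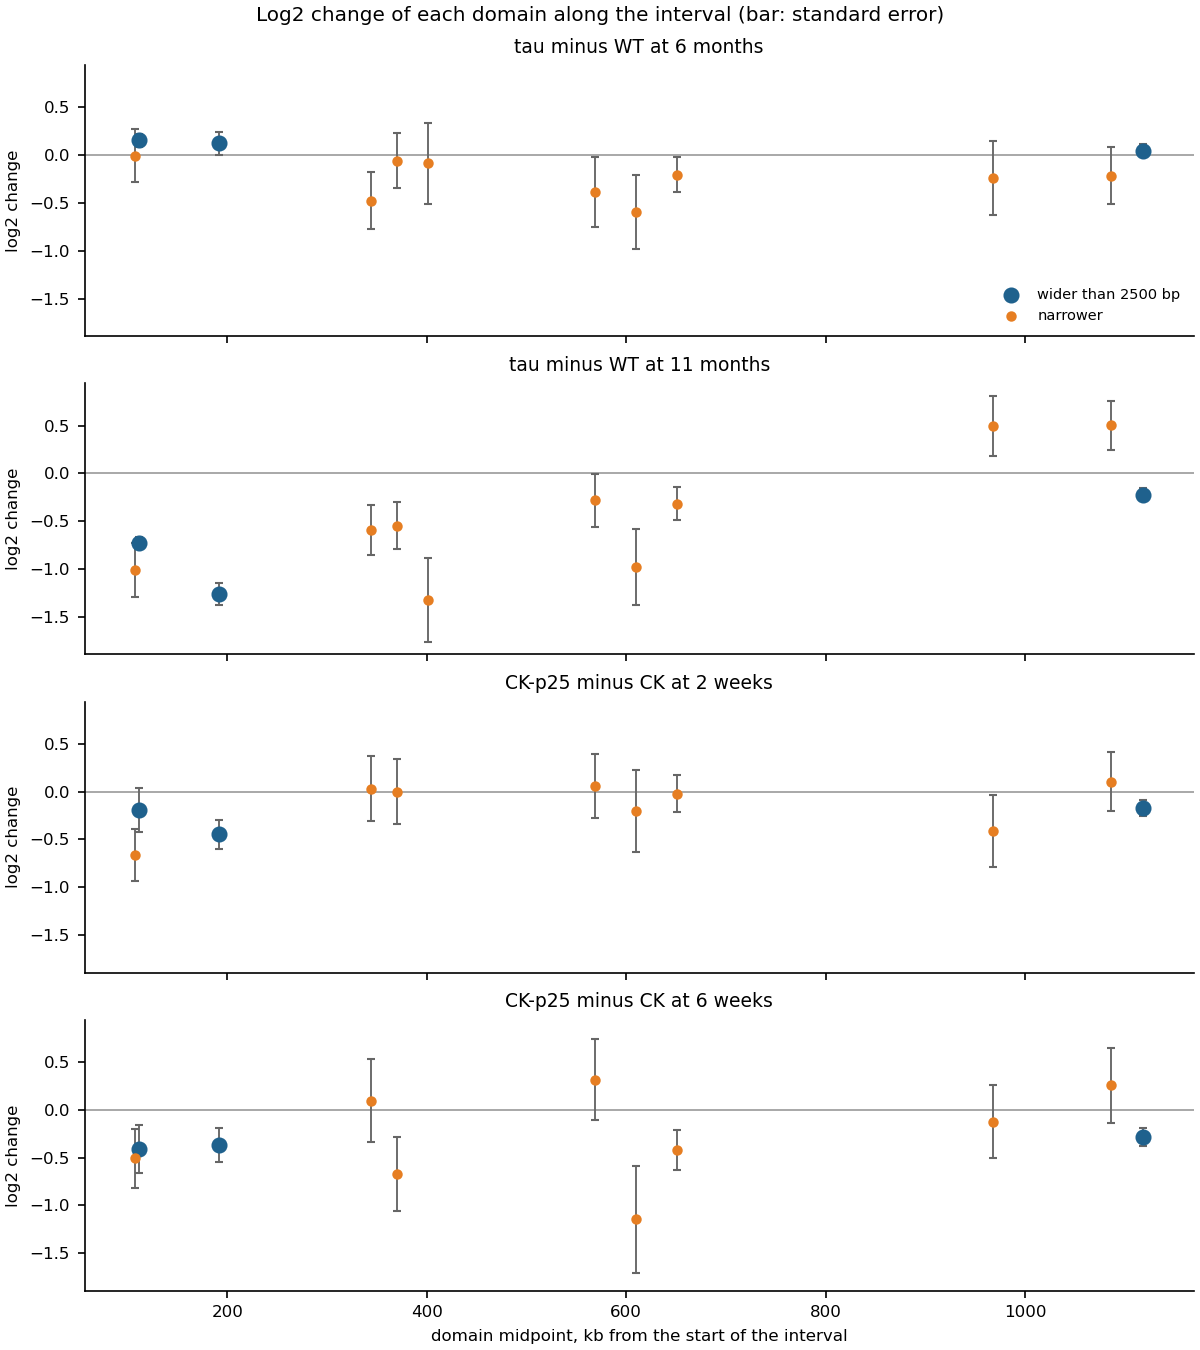
Log2 change (vertical axis) against the distance of each member's midpoint from the start of the stretch in kb (horizontal axis), for tau minus WT and CK-p25 minus CK in 4 panels. Large points are the 3 members wider than 2500 bp, small points the narrower ones, and bars are standard errors. At 11 months the values up to 401 kb lie between -0.55 and -1.33, that of peak13228 (610 kb) at -0.98, and those of peak13230 and peak13231 at 0.50.

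At 6 months none of these members was past the threshold, and the wide ones were not lower in tau. At peak13222 the level was 147 and 148 CPM in tau libraries and 132, 137 and 128 CPM in WT libraries, and every tau library lay above every WT library. The log2 change was 0.16 ± 0.07, with an unadjusted p of 0.0225 and an adjusted p of 1 by edgeR's quasi-likelihood test. At peak13223 the level was 36.1 and 39.2 CPM in tau libraries, against 32.8, 34.1 and 36.6 CPM in WT libraries, which overlapped (log2 change 0.12 ± 0.12). At peak13232 it was 135 and 137 CPM in tau libraries and 136, 129.7 and 131 CPM in WT libraries, with a log2 change of 0.04 ± 0.07.

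The smaller named members overlapped between groups at 6 months too. At peak13221 the level was 5.53 and 6.60 CPM in tau libraries and 6.99, 6.65 and 4.65 CPM in WT libraries. At peak13229 it was 13.0 and 17.2 CPM in tau libraries and 16.1, 16.3 and 19.6 CPM in WT libraries. Their log2 changes were -0.01 ± 0.28 and -0.20 ± 0.19.

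By edgeR's quasi-likelihood test 0 of 12 members passed an adjusted p of 0.05 at 6 months, and 0% of all domains did; DESeq2 called 0 members as well. At an unadjusted p under 0.05 there was 1 member, peak13222, against 3.23% of all domains. The tau libraries lay below all WT libraries in 1 member (peak13224), against 10.1% of all domains, and above them in 1 (peak13222), against 9.63% of all domains. The median log2 change of the 12 members was -0.15, with a range of -0.59 to 0.16, and 9 of them were negative. The effect at 11 months was not set against that at 6 months by a test, since the 11-month libraries were taken to have chosen the stretch.

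In the CK-p25 series 2 of the wide domains were lower in CK-p25 hippocampus over both times. The mean log2 change over 2 and 6 weeks was -0.41 ± 0.12 at peak13223 (adjusted p = 0.0178) and -0.23 ± 0.06 at peak13232 (adjusted p = 0.0106), by edgeR's quasi-likelihood test with Benjamini-Hochberg adjustment over 38193 domains. The widest member, peak13222, had -0.30 ± 0.17 (adjusted p = 0.477) and peak13221 had -0.59 ± 0.21 (adjusted p = 0.0734), and neither passed. Each passed with 1 library left out: peak13222 had -0.46 (edgeR adjusted p = 0.00398) without CK-p25 at 6 weeks replicate 2, and peak13221 had -0.75 (edgeR adjusted p = 0.0305) without CK at 6 weeks replicate 1. So 2 of the 11 members tested fell and 0 rose; 2.75% of all domains fell. The count rests on single libraries. The call at peak13223 was lost without CK-p25 at 2 weeks replicate 3, CK at 2 weeks replicate 1, CK-p25 at 6 weeks replicate 1 or 3, or CK at 6 weeks replicate 1, with edgeR adjusted p of 0.0543 to 0.109. That at peak13232 was lost without CK-p25 at 6 weeks replicate 2 (edgeR adjusted p = 0.0662) or CK at 2 weeks replicate 3 (edgeR adjusted p = 0.0623). DESeq2 called 0 members for this mean, with adjusted p of 0.108 at peak13223 and 0.0792 at peak13232. With cross correlation as a covariate the adjusted p was 0.00784 at peak13223 and 0.207 at peak13232.

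The values of each time carry this pattern with more spread. At 2 weeks peak13223 had 31.6, 25.03 and 17.99 CPM in CK-p25 libraries and 39.0, 33.3 and 32.3 CPM in CK libraries. The groups did not overlap, and the log2 change was -0.45 ± 0.15 (edgeR adjusted p = 0.131). Without CK-p25 replicate 1, the highest of its group, it was -0.66 (edgeR adjusted p = 0.0154), and without replicate 3, the lowest, it was -0.30 (edgeR adjusted p = 0.590). At peak13232 the level was 114, 110.0 and 106 CPM in CK-p25 libraries and 129.9, 109.7 and 139.5 CPM in CK libraries, where CK replicate 2 fell among the CK-p25 libraries (log2 change -0.18 ± 0.08).

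At peak13222 the 2-week level was 148, 126 and 136 CPM in CK-p25 libraries, against 148, 151 and 171 CPM in CK libraries, so the nearest libraries of the groups had 147.5 CPM in CK-p25 and 147.9 CPM in CK (log2 change -0.19 ± 0.23). This error reflects the spread in all 4 groups of the series, also those at 6 weeks. With the compared groups alone the log2 change was -0.19 ± 0.08 (edgeR adjusted p = 0.261). At peak13221 the level was 6.85, 5.21 and 6.24 CPM in CK-p25 libraries and 8.8, 8.78 and 12.3 CPM in CK libraries, without overlap (log2 change -0.66 ± 0.27, edgeR adjusted p = 0.269). At peak13229 it was 15.9, 13.8 and 19.5 CPM in CK-p25 libraries and 15.5, 17.6 and 15.4 CPM in CK libraries, which overlapped.

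By edgeR's quasi-likelihood test 0 of 11 members passed the adjusted threshold at 2 weeks, against 2.12% of all domains, and DESeq2 called 0. At an unadjusted p under 0.05 there were 3 members, all lower (peak13221, peak13223 and peak13232), against 10.6% of all domains. In 3 members (peak13221, peak13222 and peak13223) the CK-p25 libraries lay below all CK libraries, against 7.46% of all domains. The median log2 change was -0.18, and 7 of 11 members were negative. peak13226 had too few reads in this series to be tested at either time. Its mean level was higher in CK-p25 at both times. It was 2.33 ± 0.122 CPM in CK-p25 and 1.79 ± 0.463 CPM in CK libraries at 2 weeks, without overlap. These levels rest on 10, 9 and 6 reads in CK-p25 and 3, 8 and 4 reads in CK libraries. Groups apart and higher in CK-p25 were found in 8.25% of tested domains at 2 weeks. At 6 weeks the level of peak13226 was 3.30 ± 1.60 and 2.07 ± 0.908 CPM, with overlap (SD, n = 3 each).

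At 6 weeks the groups were apart at the right end. At peak13232 the level was 102, 92.4 and 118 CPM in CK-p25 libraries and 124, 123 and 127 CPM in CK libraries, without overlap, with a log2 change of -0.29 ± 0.09 (edgeR adjusted p = 0.0845). Without the shallow CK-p25 replicate 3 it was -0.35 (edgeR adjusted p = 0.0349), and without CK-p25 replicate 2 it was -0.21 (edgeR adjusted p = 0.391). At peak13223 it was 24.1, 33.2 and 16.2 CPM in CK-p25 libraries, against 34.9, 30.9 and 33.8 CPM in CK libraries, and CK-p25 replicate 2 lay among the CK libraries (log2 change -0.37 ± 0.18, edgeR adjusted p = 0.357).

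At the widest member single libraries stood apart at this time. At peak13222 the level was 115, 184 and 98.9 CPM in CK-p25 libraries and 157, 159 and 251 CPM in CK libraries, an overlap made by CK-p25 replicate 2, with a log2 change of -0.41 ± 0.25 (edgeR adjusted p = 0.595). That library had a peak13222 to peak13232 ratio of 1.99, and the shallow CK replicate 3 had 1.98, while the other 6-week libraries had 0.837 to 1.29. Without CK-p25 replicate 2 the log2 change was -0.72 (edgeR adjusted p = 0.00856), and without both shallow libraries, replicate 3 of each group, it was -0.11. The value at peak13222 therefore turns on which libraries are kept.

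Of the remaining named members, 1 had groups apart at 6 weeks. At peak13229 the level was 15.6, 15.4 and 18.5 CPM in CK-p25 libraries and 18.6, 23.03 and 26.7 CPM in CK libraries, without overlap (log2 change -0.42 ± 0.21, edgeR adjusted p = 0.378). At peak13221 it was 5.61, 7.37 and 6.95 CPM in CK-p25 libraries and 7.04, 12.5 and 10.3 CPM in CK libraries, which overlapped.

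By edgeR's quasi-likelihood test 0 of 11 members passed at 6 weeks, against 2.65% of all domains, and DESeq2 called 0. At an unadjusted p under 0.05 there were 4, all lower (peak13223, peak13228, peak13229 and peak13232), against 12.5% of all domains. The CK-p25 libraries lay below all CK libraries in 3 members (peak13225, peak13229 and peak13232), against 8.46% of all domains. The median log2 change was -0.37, with a range of -1.15 to 0.32, and 8 of 11 members were negative. Over all domains the median was 0.00 at both times.

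The effect of p25 was also compared between the times, by a test of the difference itself. By edgeR's quasi-likelihood test 0 of 11 members passed, against 0.00524% of all domains, 0 were at an unadjusted p under 0.05, against 4.76%, and DESeq2 called 0. The differences of the log2 changes, 6 weeks minus 2 weeks, were 0.08 ± 0.23 at peak13223, -0.11 ± 0.13 at peak13232 and -0.22 ± 0.34 at peak13222, each with a standard error as large as the difference or larger. Among CK littermates alone, 6 weeks against 2 weeks, 0 of 11 members passed, against 0.00262% of all domains, 0 were at an unadjusted p under 0.05, against 5.51%, and DESeq2 called 0. peak13232 averaged 125 ± 2.07 CPM at 6 weeks and 126 ± 15.2 CPM at 2 weeks in CK libraries (SD, n = 3 each).

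Wide domains, which hold more reads than others, were counted apart in this series too. Of the 3483 domains at least as wide as peak13223, 15.8% fell and 5.08% rose for the mean of both times, with a median log2 change of -0.04. In this set 91 domains (2.61%) had a lower log2 value than peak13223 and 479 (13.8%) a lower one than peak13232. At 2 weeks 25 domains (0.718%) had a lower one than peak13223, and at 6 weeks 288 (8.27%) did.

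**Figure D3:**
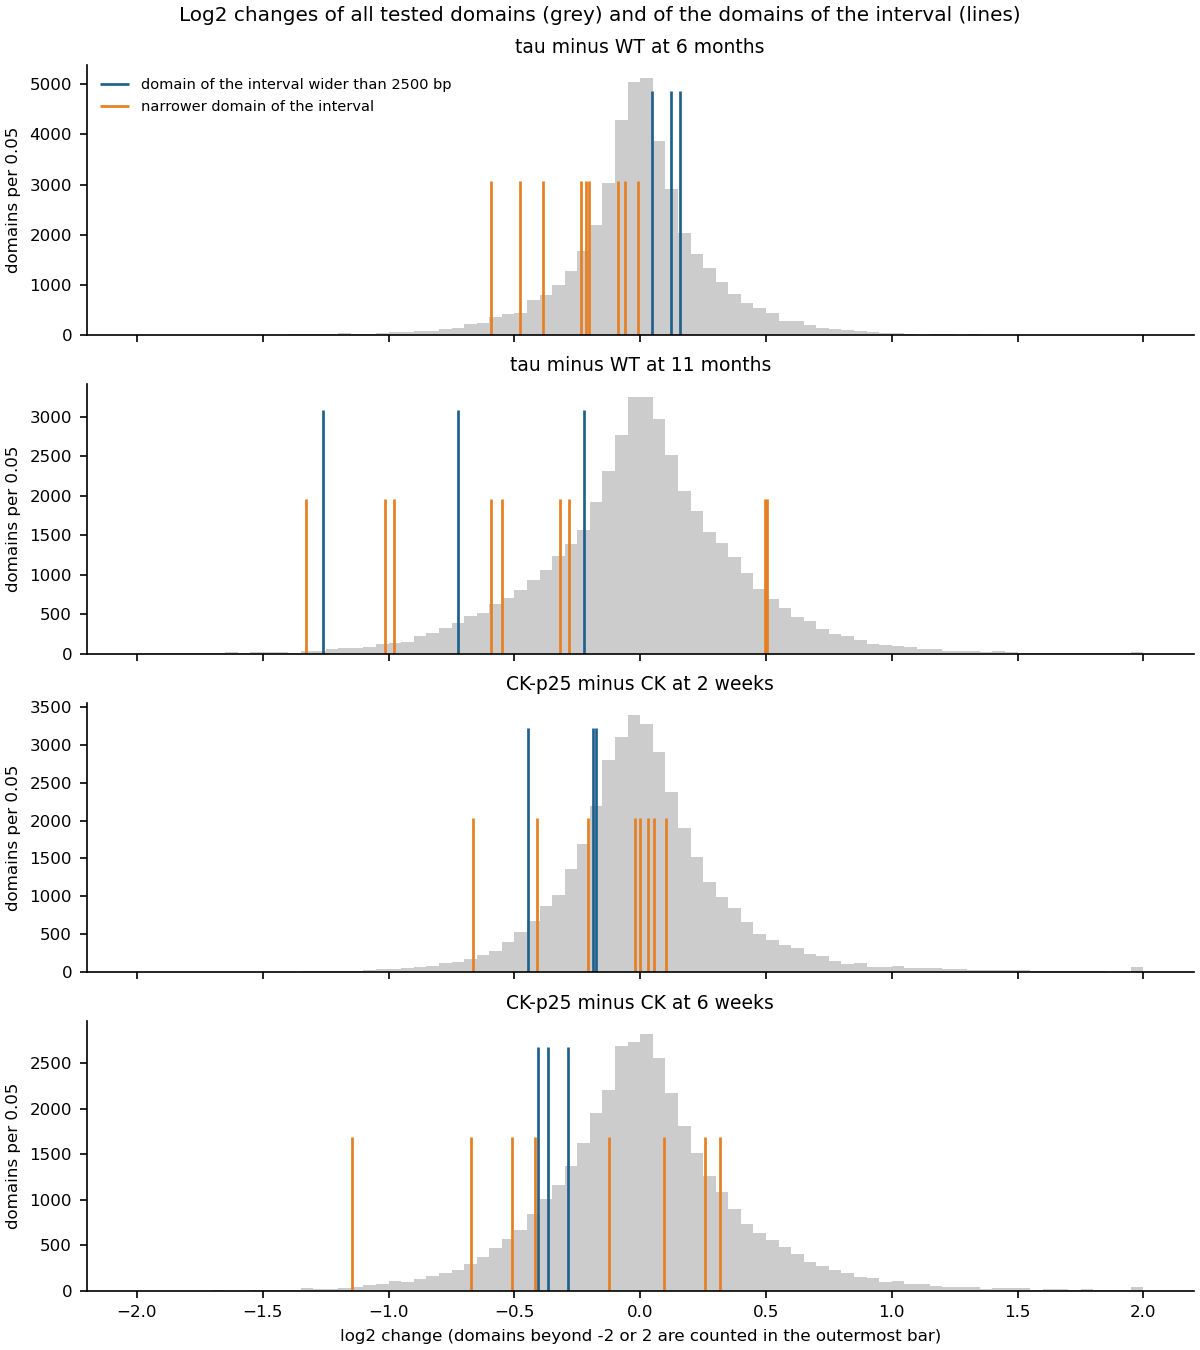
Number of tested domains per 0.05 of log2 change (grey bars) in the 4 comparisons, with the members drawn as lines at their own log2 change. Long blue lines are the members wider than 2500 bp and short orange lines the narrower ones. The wide members lie at 0.04 to 0.16 for tau at 6 months, at -0.22 to -1.26 for tau at 11 months, at -0.18 to -0.45 for CK-p25 at 2 weeks and at -0.29 to -0.41 at 6 weeks.

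Summed over the stretch, the level was 361 and 376 CPM in tau and 353, 356 and 353 CPM in WT libraries at 6 months, and 233, 259 and 233 CPM in tau and 348, 353 and 341 CPM in WT libraries at 11 months. The tau libraries at 11 months lay below every other library of the series, and WT at 6 and 11 months overlapped. In the CK-p25 series the sum was 344, 311 and 319 CPM in CK-p25 and 371, 351 and 404 CPM in CK libraries at 2 weeks. At 6 weeks it was 289, 363 and 283 CPM in CK-p25 libraries and 371, 386 and 468 CPM in CK libraries. CK-p25 lay below CK at both times without overlap, while the groups of the 2 times overlapped within each genotype. The log2 ratios of the group means were 0.06 and -0.52 for tau at 6 and 11 months and -0.21 and -0.39 for CK-p25 at 2 and 6 weeks; no test was made of a sum over chosen members.

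**Figure D4:**
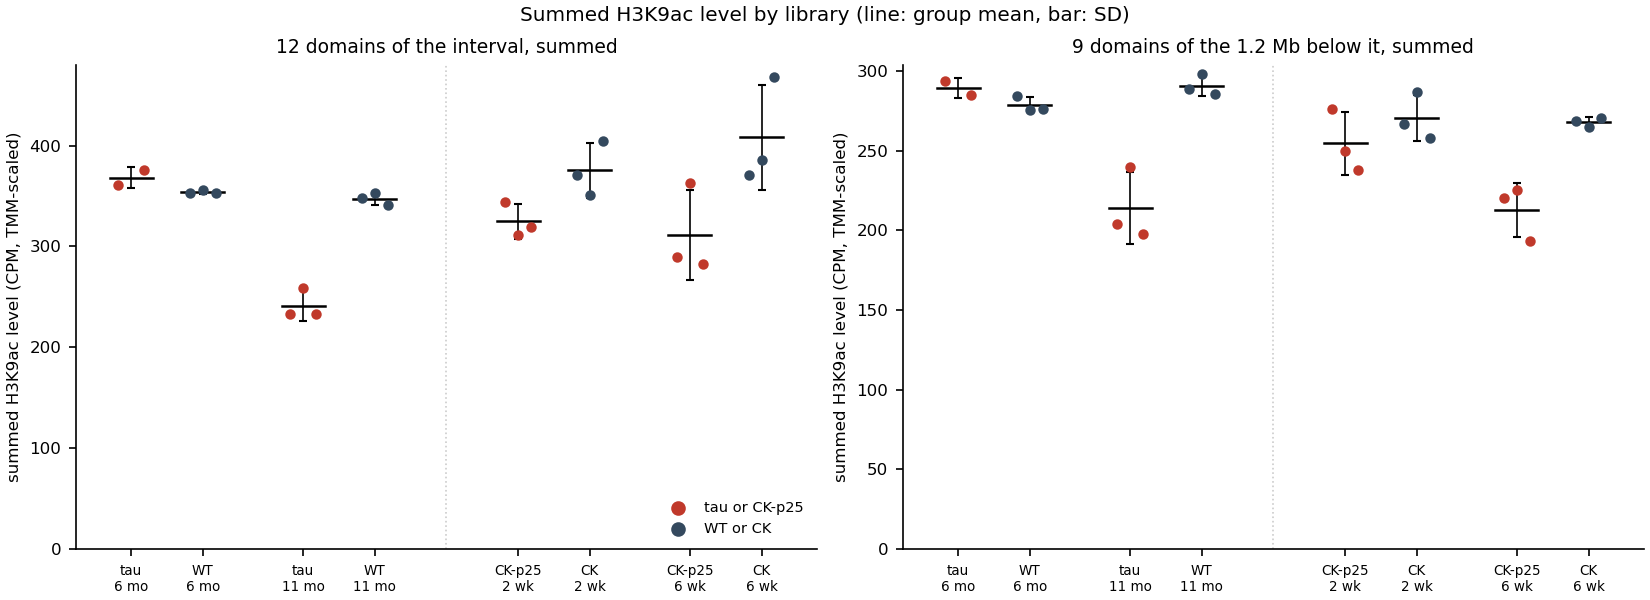
Summed H3K9ac level (CPM, TMM-scaled, linear axis from 0) of the 12 members (left) and of the 9 domains in the 1.2 Mb below the stretch (right). Points are libraries, lines group means and bars SD, and tau or CK-p25 stands left of its WT or CK group. In the left panel tau at 11 months sits at 233 to 259 CPM, against 341 to 353 CPM in WT.

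The difference did not end at the lower limit of the stretch. In the 1.2 Mb below it the 9 domains summed to 214 ± 22.6 CPM in tau and 291 ± 6.64 CPM in WT libraries at 11 months (SD, n = 3 each), a log2 ratio of -0.44, against 0.05 at 6 months. For CK-p25 the ratios there were -0.09 at 2 weeks and -0.33 at 6 weeks. Just outside the limit, peak13220 had 58.8, 81.4 and 54.3 CPM in tau and 102, 99.97 and 90.4 CPM in WT libraries at 11 months (log2 change -0.61 ± 0.09). The first members inside it, the small peak13221 and the wide peak13222, had the log2 changes of -1.01 ± 0.28 and -0.72 ± 0.06 given above.

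In the CK-p25 libraries peak13220 had 67.5, 76.0 and 61.0 CPM in CK-p25 and 93.7, 89.5 and 107 CPM in CK libraries at 6 weeks, and it fell there, with a log2 change of -0.46 ± 0.11 and an adjusted p of 0.00507 by edgeR. At 2 weeks it had 95.4, 77.7 and 68.7 CPM in CK-p25 and 84.6, 101 and 97.4 CPM in CK libraries, which overlapped (log2 change -0.22 ± 0.09, edgeR adjusted p = 0.309). Above the stretch the nearest domain was the small peak13233 (2.86 CPM in tau and 4.60 CPM in WT libraries at 11 months on average). It had a log2 change of -0.65 ± 0.29 for tau at 11 months, with groups apart, and of -0.40 ± 0.41 for CK-p25 at 6 weeks (edgeR adjusted p = 0.776). The next, peak13234, is abundant and had a log2 change of -0.06 ± 0.07 for tau at 11 months and -0.22 ± 0.11 for CK-p25 at 6 weeks (edgeR adjusted p = 0.394). Counts summed in 1 Mb bins gave the same outline for tau at 11 months. The log2 change was -0.04 ± 0.02 at 130 to 131 Mb and -0.55 ± 0.09 at 131 to 132 Mb, which holds only 2 domains, peak13220 among them. It was -0.65 ± 0.05 at 132 to 133 Mb, where 11 of the 12 members lie, and -0.18 ± 0.07 at 133 to 134 Mb, which holds peak13232 alone. It was 0.07 ± 0.03 at 134 to 135 Mb. In the same comparison 936 of 2279 bins of the genome were past an adjusted p of 0.05 by edgeR, in either direction.

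Another stretch of chromosome 5 with lower H3K9ac in tau at 11 months, 113 to 114 Mb, holds 46 domains. Its summed level had log2 ratios of 0.04 and -0.45 for tau at 6 and 11 months and of -0.17 and -0.26 for CK-p25 at 2 and 6 weeks, beside 0.06, -0.52, -0.21 and -0.39 in the stretch described here. No test was made of the difference between them, and they share all libraries.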

How the data were processed

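Used were the 23 H3K9ac libraries; input DNA (22 libraries) is not part of the count table. The authors deposited whole read counts for each domain of a common set, not normalised, and a list of domain positions, given here 1-based. BWA, Picard 1.1175, MACS2 and the build mm9 are named, without parameters, per the submitters' processing notes; whether peak calling pooled samples is not stated there. Sequencing was single-end, so copies of 1 molecule cannot be told from separate molecules and counting error is a lower limit of the error.

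The test on counts of all domains was edgeR's (version 4.0.16, under R 4.3.3: quasi-likelihood F test, robust, TMM, filterByExpr by group), with 1 mean per group, in the 11 tau-series libraries and apart from these in the 12 libraries of the CK-p25 series. Two-sided p-values were adjusted by Benjamini-Hochberg over every domain in the test, and 0.05 was the threshold. Standard errors are the size of the log2 change over the square root of F. Members and lists were chosen with earlier results of these data known. Given in full were the 5 members with the highest mean CPM and any past the threshold outside tau at 11 months; named for likeness were the 5 domains of at least 10 CPM closest to the summed members, and the nearest 2 on either side. The fit was also run on simulated counts. These held no difference in ChIP enrichment between groups, so they cannot show how the test behaves under one.

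Replicates were compared in 22 pairs, and each pair differed beyond sampling noise (chi-square per degree of freedom 1.10 to 1.88, domains with 20 or more reads in a pair). Alternatives were the DESeq2 1.42.0 Wald test, DESeq2 size factors, library totals, no filter, cross correlation as a covariate, a replicate block, the compared groups alone, another bin grid, and libraries left out.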

Additional observations from a re-analysis of the deposited data

Results flagged for a closer look

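At peak13222 the log2 change of tau against WT had opposite signs at the 2 ages, but that at 6 months (0.16 ± 0.07) did not pass the adjusted threshold. Every tau library lay above every WT library at 6 months (147 and 148 CPM in tau, 128 to 137 CPM in WT) and below every WT library at 11 months (83.0 to 94.0 CPM in tau, 136 to 157 CPM in WT). Groups apart and higher in tau at 6 months were found in 9.63% of all domains, with 2 tau libraries. At 11 months groups apart and lower in tau were found in 13.8%. The log2 change at 11 months minus that at 6 months was -0.88. This difference was not tested, because the 11-month libraries were taken to have chosen the stretch, and age and sex changed together.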

How the results depend on the processing

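Depth limits the 8 members below 10 CPM, whose reads per library ran down to 1. The numbers of members past the threshold depended on the settings. For tau at 11 months, as a description, there were 5; DESeq2 gave 3, cross correlation as a covariate 2, and leaving out 1 library 2 to 6. For CK-p25 at 2 and at 6 weeks there were 0, and leaving out 1 library gave 0 to 1. For their mean there were 2; DESeq2 gave 0, the covariate 1, leaving out both shallow 6-week libraries 1, and leaving out 1 library 1 to 2. The cause was not tested.

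In the 132 to 133 Mb bin the log2 change for CK-p25 at 6 weeks was -0.34 (edgeR adjusted p = 0.269), and -0.57 to -0.23 with 1 library left out. The value of -0.57 was without CK-p25 replicate 2 and passed the threshold (edgeR adjusted p = 0.00116). For the mean it was -0.26 (edgeR adjusted p = 0.176), and -0.38 to -0.21 with 1 library left out. It passed without CK-p25 at 6 weeks replicate 2 (-0.38, edgeR adjusted p = 0.000437) and in a grid starting at the stretch (-0.25, edgeR adjusted p = 0.0223). Whether the bin passed for the mean thus depended on the grid and on 1 library.

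Some signs turned, none of them at a value that had passed the threshold. With 1 library left out, the log2 change ran from -0.17 to 0.12 at peak13221 for tau at 6 months and from -0.15 to 0.09 (0.0917) at peak13229 at 2 weeks. The effect at 6 weeks minus that at 2 weeks ran from -0.15 to 0.39 at peak13221, -0.15 to 0.29 at peak13223 and -0.18 to 0.00521 at peak13232. CK at 6 against 2 weeks ran from -0.30 to 0.24 at peak13221, -0.14 to 0.0121 at peak13223 and -0.12 to 0.0691 at peak13232. With both shallow libraries left out, the effect difference at peak13222 was 0.0796. With the covariate, peak13229 was 0.15 for tau at 11 months and 0.0428 at 2 weeks, and CK at 6 against 2 weeks was 0.0753 at peak13223 and -0.0733 at peak13232. That last comparison, 0.00137 at peak13232, was -0.00423 by DESeq2, -0.00375 with both shallow libraries left out and -0.00349 with the replicate block.

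Same-numbered libraries correlated at -0.02 to 0.11 in their deviations from group means, over 0.1 in 2 of 11 pairs. Low correlations cannot exclude pairing. Libraries were treated as unpaired, with the replicate block as an alternative. With the replicate block the counts of members past the threshold were the same, 5 for tau at 11 months and 2 for the CK-p25 mean. Library totals in place of TMM moved the median of all domains at 11 months to 0.05, with 2705 higher and 2775 lower domains against 1940 and 3333. In all, 661 of 726 values from alternatives were counted as unchanged. These include counts of members that moved, such as 4 or 6 in place of 5 for tau at 11 months. An equal count can also hold other members. The summed levels among these values were not tested and have no side of the threshold.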

Other observations

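The domains whose level followed the summed members most closely over the 23 libraries lay elsewhere. Pearson's r of log2 CPM, centred within each series, was 0.963 for peak13624 (chr5:143167974-143169816), 0.956 for peak15855 (chr6:136118674-136124006), 0.954 for peak31380 (chr12:109230759-109242501), 0.953 for peak17113 (chr7:52417149-52422440) and 0.949 for peak3944 (chr2:79293682-79297200), the 5 highest of 18652 domains with at least 10 CPM. These are descriptions: the libraries share depth, enrichment and the grouping taken to have chosen the stretch. The log2 changes of peak13624 were 0.00 and -1.62 for tau at 6 and 11 months and -0.55 and -0.89 for CK-p25 at 2 and 6 weeks. Next to the stretch, peak13220 had an r of 0.892.

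The members did not all move together. The r of a member with the sum of the other members was 0.845 for peak13223, 0.827 for peak13221, 0.695 for peak13222 and 0.548 for peak13232, but -0.28 for peak13227 and -0.23 for peak13230, which hold few reads. In the tau series alone, with the groups taken to have chosen the stretch, r was 0.968 for peak13223 and 0.719 for peak13232. In the CK-p25 series alone it was 0.663 and 0.309. At the small peak13226 r was 0.864 in the tau series and -0.36 in the CK-p25 series.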
